A study of Mus musculus with 6 samples.

Results

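Described here are 10 genes of lactate transport, glucose uptake and glycolysis in muscle satellite cells, the Pax7-expressing stem cells of skeletal muscle. They encode the monocarboxylate transporters Slc16a1 and Slc16a3 with their partner Bsg, the lactate dehydrogenase subunits Ldha and Ldhb, the glucose transporters Slc2a1 and Slc2a4, the hexokinases Hk1 and Hk2, and pyruvate kinase, Pkm. In GRCm38 (RefSeq) they lie at chr3:104638664-104658462 (Slc16a1), chr11:120948484-120959000 (Slc16a3), chr10:79704358-79711979 (Bsg), chr7:46842274-46855627 (Ldha), chr6:142490249-142507957 (Ldhb), chr4:119108745-119137330 (Slc2a1), chr11:69942286-69948216 (Slc2a4), chr10:62268855-62379920 (Hk1), chr6:82725025-82774454 (Hk2) and chr9:59656576-59679372 (Pkm), and each has a single count per library, not split by exon or transcript. They are 10 of the 27179 gene IDs in the deposited count files. The genes were chosen by name and role with the difference between the diets in these same 6 libraries already known. That difference is therefore given for them as a description, and nothing is inferred from its tests. RNA-seq was done on satellite cells sorted from the muscle of wild-type (WT) C57Bl/6N mice fed a high-fat diet (HFD, 3 libraries) or chow (3 libraries), and the study set obese mice against lean ones. Each library came from at least 50000 sorted cells. The sources used here give no age, no length of feeding and no number of animals behind a library, so a p-value reflects only how these libraries vary, and that variation may be technical. Values after ± are SDs over the 3 libraries of a diet.

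Total counts ran from 14930394 to 18217818 in the HFD libraries and from 15977166 to 17690342 in the chow libraries. All 12 satellite cell markers examined, Pax7 among them, were above the filter on low counts. Their summed level was 4867 to 6069 counts per 1000000 reads (CPM) in HFD cells and 5729 to 6340 CPM in chow cells. Pax7 itself was at 171, 247 and 283 CPM in HFD libraries 1, 2 and 3 and at 370, 405 and 430 CPM in chow libraries 1, 2 and 3, without overlap. Of the 12, Spry1 was also lower in every HFD library, at 69.1, 110 and 94.1 CPM, than in chow libraries 1, 2 and 3 (140, 183 and 139 CPM). Itga7 went the other way, at 404, 381 and 322 CPM in HFD libraries 1, 2 and 3 and 260, 193 and 280 CPM in chow libraries 1, 2 and 3, and the other 9 overlapped. The 12 myofibre markers summed to 29.6 to 39.0 CPM in HFD cells and 40.9 to 45.9 CPM in chow cells. The 8 immune cell markers summed to 7.61 to 25.2 CPM in HFD cells and 19.2 to 49.8 CPM in chow cells. For the 10 endothelial markers the sums were 245 to 469 CPM in HFD cells and 329 to 435 CPM in chow cells. Those of the 10 fibro-adipogenic progenitor markers were larger, 1267 to 1575 CPM in HFD cells and 1179 to 1403 CPM in chow cells. Col3a1, Gsn, Dpt, Cd34 and Dcn made up most of these sums. Pdgfra, of the same list, was at 0 to 5.27 CPM in HFD cells and 3.50 to 8.28 CPM in chow cells. The 8 mural cell markers summed to 557 to 794 CPM in HFD cells and 712 to 826 CPM in chow cells. Of the immune markers Adgre1, Cd52 and Tyrobp were at 0 in every library, as were Hbb-bs and Slc4a1, which are expressed in red blood cells.

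Glucose enters a cell through facilitative transporters, is trapped as glucose 6-phosphate by a hexokinase and is broken down to pyruvate, the last step being that of pyruvate kinase. Lactate dehydrogenase converts pyruvate and lactate into each other, and monocarboxylate transporters carry lactate with a proton across the cell membrane. Slc16a1 (MCT1) has a high affinity for lactate and Slc16a3 (MCT4) serves export from glycolytic cells. Both reach the membrane bound to basigin, the product of Bsg.

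The highest levels were those of pyruvate kinase and lactate dehydrogenase A. In reads per kb of exon per 1000000 reads (RPKM), the mean over the 6 libraries was 105 for Pkm, 85.5 for Ldha, 42.9 for Slc16a1, 34.8 for Bsg and 23.3 for Hk1. It was 18.5 for Slc16a3, 11.1 for Slc2a1 and 9.46 for Hk2. Pkm thus lay above 97.5% and Hk2 above 67.3% of the tested genes with a known exon length. Pkm exceeded Ldha, and Ldha exceeded Slc16a1, in 6 of 6 libraries. Slc16a1 exceeded Bsg, and Bsg exceeded Hk1, in 5 of 6. The lower neighbours could not be ordered, since Slc16a3 exceeded Slc2a1 in 3 of 6 libraries, the 3 of the HFD, and Slc2a1 exceeded Hk2 in 4 of 6. Counts per gene do not separate the PKM1 and PKM2 forms, which are spliced from the same gene.

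**Figure D1:**
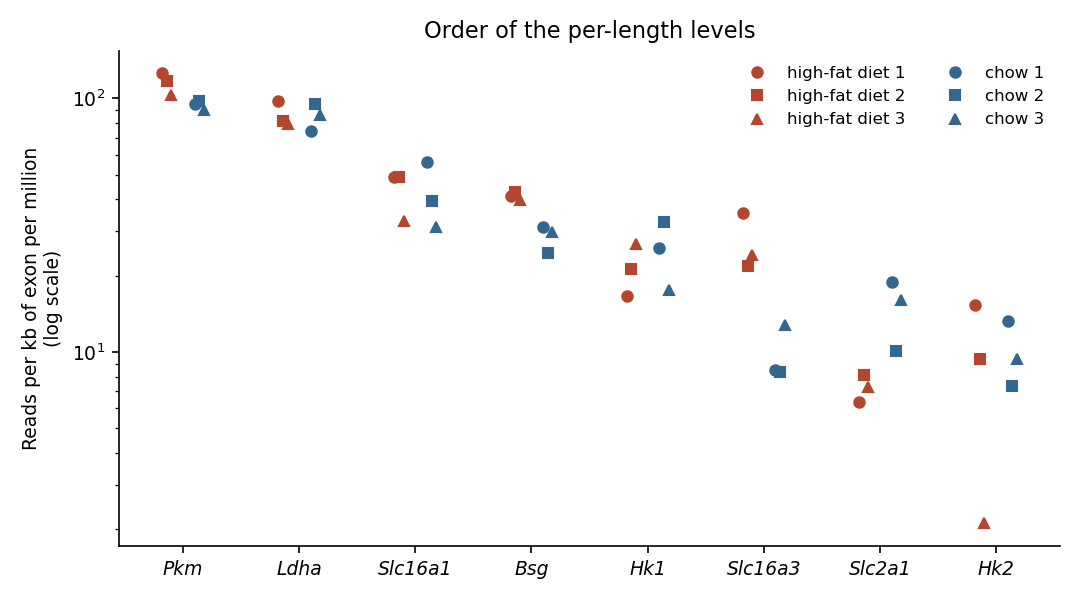
RPKM (log axis) of the 8 genes above the filter on low counts, in order of their mean over the 6 libraries, with the 3 HFD libraries left of the 3 chow libraries. Pkm (105 on average) and Ldha (85.5) lead in every library, and the lowest point is Hk2 in HFD library 3 (2.11).

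Ldhb and Slc2a4 were at or near 0. Ldhb, the subunit that prevails in heart and oxidative muscle, had 0, 0 and 3 reads in HFD libraries 1, 2 and 3 and 20, 7 and 0 reads in chow libraries 1, 2 and 3. Slc2a4 (GLUT4), the insulin-regulated transporter of muscle fibres and fat cells, had 0, 14 and 10 reads in HFD cells and 0, 43 and 0 reads in chow cells. Neither passed the filter on low counts, and their ranges in the diets overlapped. The lactate dehydrogenase reads counted were nearly all of Ldha, with a per-length ratio of Ldhb to Ldha between 0 and 0.0129 in the 6 libraries. The Ldhb transcript, of 1304 bases, matched a processed pseudogene at 95% identity or more over 1002 bases. The effect of this copy on the Ldhb count was not tested.

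The 250 bases before the annotated start are shown for both lactate transporters and for Slc2a1 and Hk2, the genes whose levels are compared most closely. They are RefSeq sequences of GRCm38.p6, written along the strand of the gene. Capitals mark ACGTG and GCGTG on either strand (also seen as CACGT and CACGC), the core letters bound by hypoxia-inducible factors. The Slc16a3 window is chr11:120948817-120949066 (plus strand), inside the RefSeq gene and upstream of a start within it. The Slc16a1 window is chr3:104638414-104638663 (plus strand). The Slc2a1 window is chr4:119108495-119108744 (plus strand), and the Hk2 window is chr6:82774455-82774704 (minus strand).
Slc16a3: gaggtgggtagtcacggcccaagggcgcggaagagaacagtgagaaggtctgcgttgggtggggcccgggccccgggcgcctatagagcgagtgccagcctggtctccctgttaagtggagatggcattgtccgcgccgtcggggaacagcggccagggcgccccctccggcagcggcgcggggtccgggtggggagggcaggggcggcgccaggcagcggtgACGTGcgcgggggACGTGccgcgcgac
Slc16a1: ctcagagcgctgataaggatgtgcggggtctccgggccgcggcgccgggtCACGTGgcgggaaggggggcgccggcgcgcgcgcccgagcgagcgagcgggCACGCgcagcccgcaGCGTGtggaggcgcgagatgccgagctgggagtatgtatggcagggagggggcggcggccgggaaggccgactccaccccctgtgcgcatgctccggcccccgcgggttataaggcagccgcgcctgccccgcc
Slc2a1: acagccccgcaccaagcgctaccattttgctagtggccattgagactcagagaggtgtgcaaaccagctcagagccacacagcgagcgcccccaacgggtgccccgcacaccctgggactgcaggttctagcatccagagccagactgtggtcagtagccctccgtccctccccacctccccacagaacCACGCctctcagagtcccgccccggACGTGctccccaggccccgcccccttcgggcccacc
Hk2: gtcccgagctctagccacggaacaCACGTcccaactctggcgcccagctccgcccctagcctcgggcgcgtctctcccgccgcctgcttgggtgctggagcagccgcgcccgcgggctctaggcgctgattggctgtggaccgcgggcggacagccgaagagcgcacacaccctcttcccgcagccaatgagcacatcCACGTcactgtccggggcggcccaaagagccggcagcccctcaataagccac

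In the Slc16a3 window 2 copies of ACGTG begin 27 and 14 bases before the start. In the Slc2a1 window the core letters begin 61 and 36 bases before it, and in the Hk2 window 226 and 52 bases before it. The Slc16a1 window has 4 matches, of which the first pair is a single CACGTG read on both strands, the E-box that Myc and Mlx family factors bind. Promoter windows were found for 8 of the 10 genes, some with a second start, and 9 of their 11 windows held a core match. The windows without a match were those of the first listed start of Pkm and of Hk1. Of all 32851 windows of this length 38.6% held ACGTG or GCGTG, 16.6% held ACGTG, 28.2% held GCGTG and 6.02% held CACGTG. These shares were not matched for GC content, which was 49.6% to 76.4% in the 11 windows. The core matches are matches of letters and do not show that a factor was bound.

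Between the diets, Slc16a3 differed most among these genes. It was at 157, 96.7 and 107 CPM in HFD libraries 1, 2 and 3, against 37.7, 37.0 and 56.9 CPM in chow libraries 1, 2 and 3. Each HFD library lay above each chow library. Means were 120 ± 32.3 CPM in HFD cells and 43.9 ± 11.3 CPM in chow cells, 2.74-fold higher, a log2 fold change of 1.46 (SE 0.28). Without any 1 of the libraries it ran from 1.23 to 1.69. In these bulk samples a change in the share of cells that express a gene and a change in its RNA per cell cannot be told apart. Beside this, each HFD library was below every chow library for Pax7, Spry1 and the summed myofibre markers, and above them for Itga7. The sums of the immune, endothelial, fibro-adipogenic and mural markers overlapped. Single genes carried much of some sums, such as Tek (183 CPM in HFD library 1) and Notch3 (469 to 623 CPM in HFD cells). Pecam1 was at 4.94, 42.0 and 41.5 CPM in HFD libraries 1, 2 and 3 and 22.3, 32.4 and 65.7 CPM in chow libraries 1, 2 and 3. The sums therefore do not show that the libraries held equal shares of these cells. The part of all these in the Slc16a3 result was not tested. The 3′ end of Slc16a3 overlaps Csnk1d over 1292 bases. Csnk1d had 4597 to 7078 reads in HFD cells and 5637 to 6371 in chow cells, ranges that overlap.

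Slc16a1, the other lactate transporter, had overlapping ranges. It was at 217, 217 and 146 CPM in HFD cells and at 249, 175 and 137 CPM in chow cells, with a log2 fold change of 0.05 (SE 0.24). Bsg, the partner of both, was at 69.1, 71.7 and 66.7 CPM in HFD cells and 52.1, 41.4 and 50.0 CPM in chow cells. The Bsg ranges did not overlap, and the log2 fold change was 0.53 (SE 0.27). The 3 HFD libraries were close to each other for Bsg, with a coefficient of variation of 3.63%, against 11.9% in the chow libraries.

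**Figure D2:**
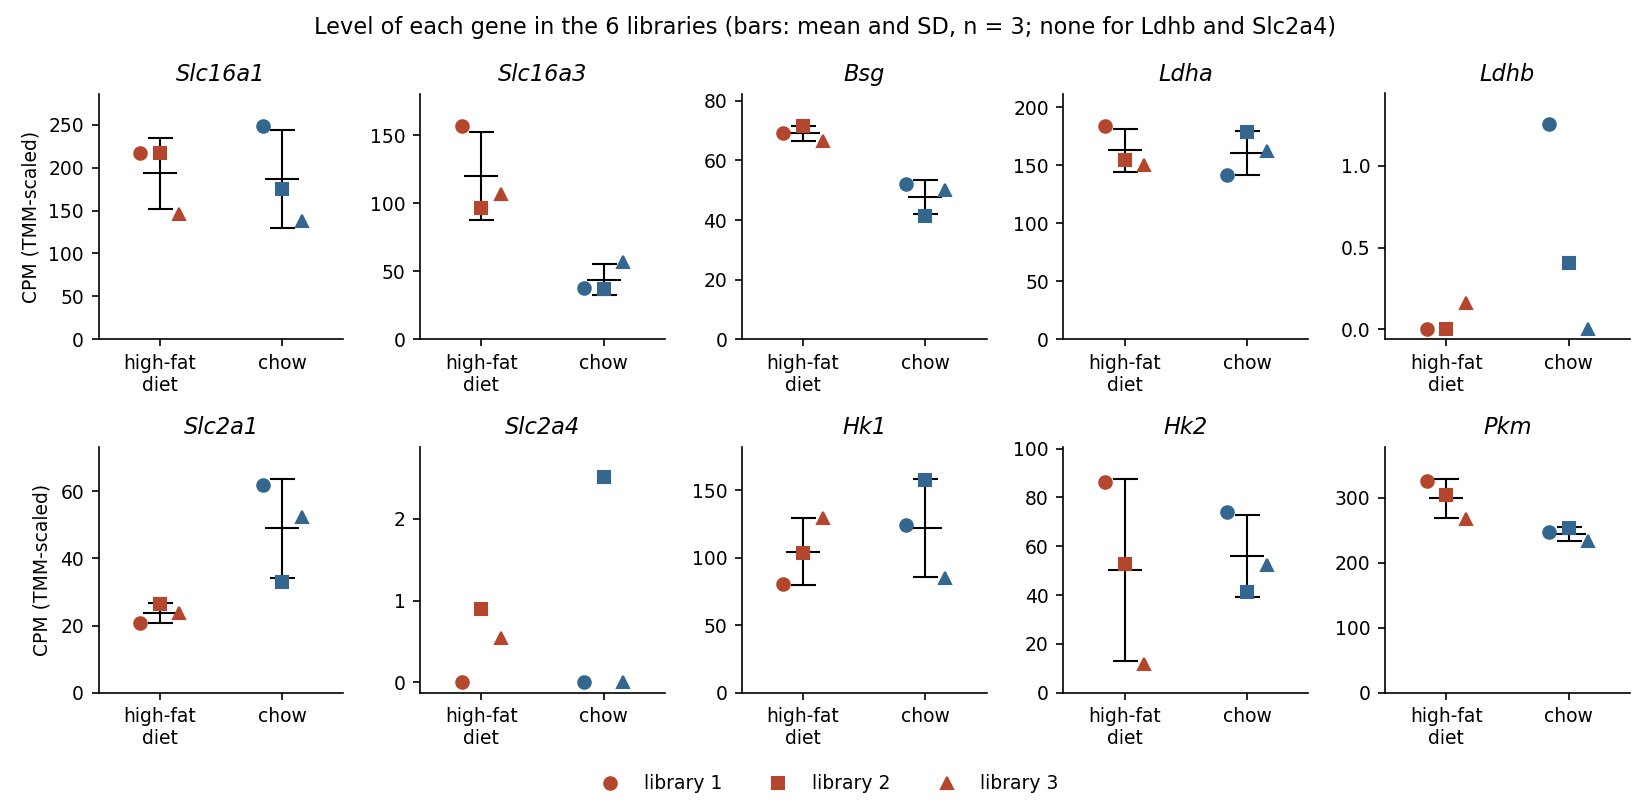
Level of each of the 10 genes in CPM, HFD left of chow, with a point for each library (circle 1, square 2, triangle 3). The mean with its SD is drawn for all but Ldhb and Slc2a4. The diets do not overlap for Slc16a3, Bsg and Pkm, which are higher in HFD cells, nor for Slc2a1, which is lower. Hk2 in HFD library 3 (11.9 CPM) is far below the other 5 libraries, and Ldhb and Slc2a4 stay under 3 CPM.

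The balance of the lactate transporters can be read within a library, where scaling between libraries has no part. Slc16a3 made up 41.9%, 30.7% and 42.3% of the summed per-length level of Slc16a3 and Slc16a1 in HFD libraries 1, 2 and 3. In chow libraries 1, 2 and 3 it made up 13.1%, 17.4% and 29.2%. The lowest HFD library and the highest chow library were thus 30.7% and 29.2%. The means were 38.3% ± 6.55 in HFD cells and 19.9% ± 8.33 in chow cells. Slc16a1 had the higher measured per-length level in all 6 libraries. How reads in the 1292 bases shared by Slc16a3 and Csnk1d were counted is unknown here. The Slc16a3 level, its share and this order are uncertain to that extent. The sum of Slc16a3 and Slc16a1 was 84.4, 70.7 and 57.0 RPKM in HFD cells and 64.7, 47.8 and 43.8 RPKM in chow cells, with overlapping ranges.

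Slc2a1 (GLUT1), the basal glucose transporter of most cells, lay lower in HFD cells. It was at 20.6, 26.5 and 23.7 CPM in HFD libraries 1, 2 and 3, against 61.8, 32.9 and 52.3 CPM in chow libraries 1, 2 and 3. The ranges did not overlap, and chow library 2 was nearest to the HFD libraries. Means were 23.6 ± 2.96 CPM in HFD cells and 49.0 ± 14.7 CPM in chow cells, a log2 fold change of -1.05 (SE 0.36). Red blood cells and endothelial cells can also express Slc2a1. The endothelial marker sums of the diets overlapped, while Kdr, 1 of the 10 endothelial markers, was higher in every HFD library (24.3, 23.8 and 39.3 CPM) than in chow libraries 1, 2 and 3 (11.9, 13.7 and 7.29 CPM). The 5 red blood cell markers reported here, Hbb-bs and Slc4a1 among them, summed to at most 1.79 CPM in the HFD libraries and 1.84 CPM in the chow libraries. The part of these cells in the Slc2a1 result was not tested. Slc2a3, the high-affinity GLUT3, was at 53.8, 53.7 and 64.3 CPM in HFD cells and 80.8, 79.3 and 68.5 CPM in chow cells, again without overlap, with a log2 fold change of -0.41 (SE 0.25). Within a library, the per-length ratio of Slc16a3 to Slc2a1 was 5.59, 2.67 and 3.31 in HFD cells and 0.448, 0.822 and 0.797 in chow cells, so that the order of these genes differed between the diets. The summed per-length level of Slc2a1 and Slc2a3 was 21.7 ± 1.79 RPKM in HFD cells and 34.3 ± 4.68 RPKM in chow cells. The lncRNA gene Gm12867 lies within the span of Slc2a1 over 1881 bases and Hk1os within that of Hk1 over 23378 bases. Another lncRNA gene, LOC115487221, lies within the span of Pkm over 1786 bases. Hk1os had 0 reads in every HFD library and 0 to 2 in the chow libraries. Whether reads were counted by strand is unknown here.

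The hexokinases overlapped between the diets, and their spread was wide. Hk1, the constitutive mitochondrial hexokinase, was at 80.4, 103 and 129 CPM in HFD cells and 124, 157 and 84.8 CPM in chow cells, with a log2 fold change of -0.23 (SE 0.26). Hk2, the inducible form of muscle and proliferating cells, was at 86.3, 52.8 and 11.9 CPM in HFD cells and 74.2, 41.1 and 52.4 CPM in chow cells. HFD library 3 was the lowest for Hk2 (220 reads) and the highest of its diet for Hk1 (2400 reads). The fitted log2 fold change of Hk2 was -0.15 (SE 0.51), and it was 0.32 without HFD library 3, 0.11 without chow library 1 and -0.78 without HFD library 1. Hk2 made up 48.1%, 30.6% and 7.34% of the summed per-length hexokinase level in HFD libraries 1, 2 and 3, and 34.1%, 18.4% and 34.8% in chow libraries 1, 2 and 3. Hk1 was the more abundant form in all 6.

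**Figure D3:**
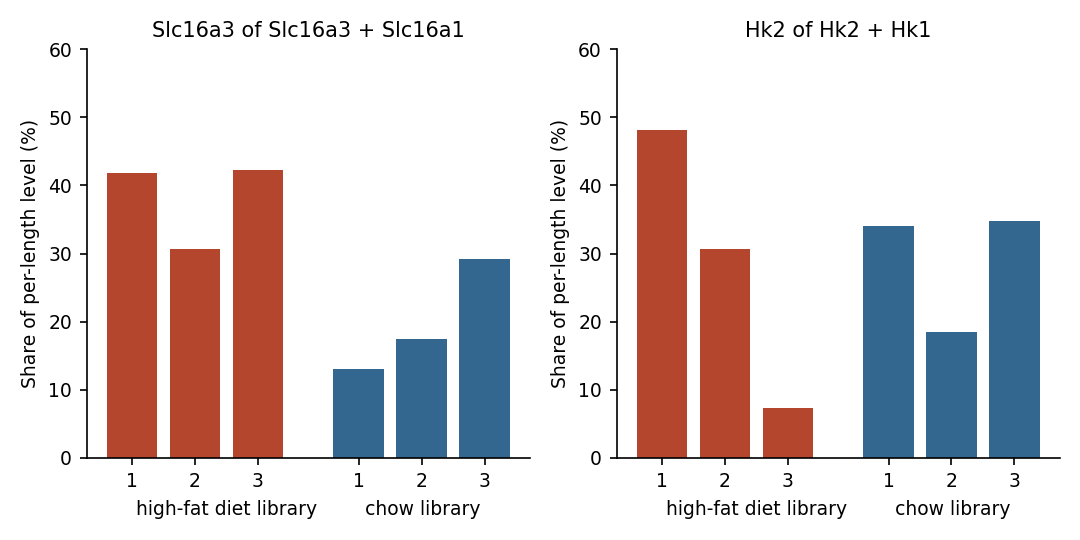
Share (%) of the summed per-length level held by Slc16a3 (left panel, of Slc16a3 and Slc16a1) and by Hk2 (right panel, of Hk2 and Hk1), with a bar for each library, HFD left of chow. The Slc16a3 share is 30.7% or more in HFD cells and at most 29.2% in chow cells, whereas the Hk2 share spans 7.34% to 48.1% within the HFD.

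Pyruvate kinase and lactate dehydrogenase A close the pathway. Pkm was at 326, 305 and 267 CPM in HFD cells and 248, 254 and 233 CPM in chow cells. Its ranges did not overlap, and its log2 fold change was 0.29 (SE 0.17). Ldha was at 184, 154 and 150 CPM in HFD cells and 141, 179 and 163 CPM in chow cells, with a log2 fold change of 0.02 (SE 0.19). The Ldha ranges overlapped. In a search of annotated transcripts at 95% identity over at least 75 bases, the length of a read, Ldha matched 5 processed pseudogenes. Pkm and Ldhb matched 1 each, with no such copy for Slc16a1, Slc16a3, Bsg or Hk2. How reads that map to several places were counted is unknown here, and Ldha, Ldhb and Pkm levels are uncertain to that extent.

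By edgeR (quasi-likelihood F test, Benjamini-Hochberg adjustment over 13202 genes) 0 of the 8 genes above the filter passed an adjusted p of 0.05, where 0.258% of all tested genes did. The lowest adjusted p was that of Slc16a3 (0.0549), followed by Slc2a1 (0.410) and Bsg (0.698). By unadjusted p, Slc16a3 stood at place 36 of all genes, just beyond the 34 that passed. An unadjusted p under 0.05 was reached by 2 of the 8, Slc16a3 and Slc2a1, and by 1010 of all tested genes (7.65%). DESeq2 and limma-voom each called 1 of the 8, Slc16a3, with adjusted p of 0.00119 and 0.0191, where they called 1.50% and 0.750% of all tested genes, and over all alternatives its adjusted p ran from 9.55e-05 to 0.259. The diets did not overlap for 4 of the 8 genes (3 above chow, 1 below) and for 15.3% of all tested genes. The median log2 fold change was 0.03 over the 8 and -0.01 over all tested genes. Since these genes were chosen with this comparison known, the counts describe them and nothing is read from them.

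**Figure D4:**
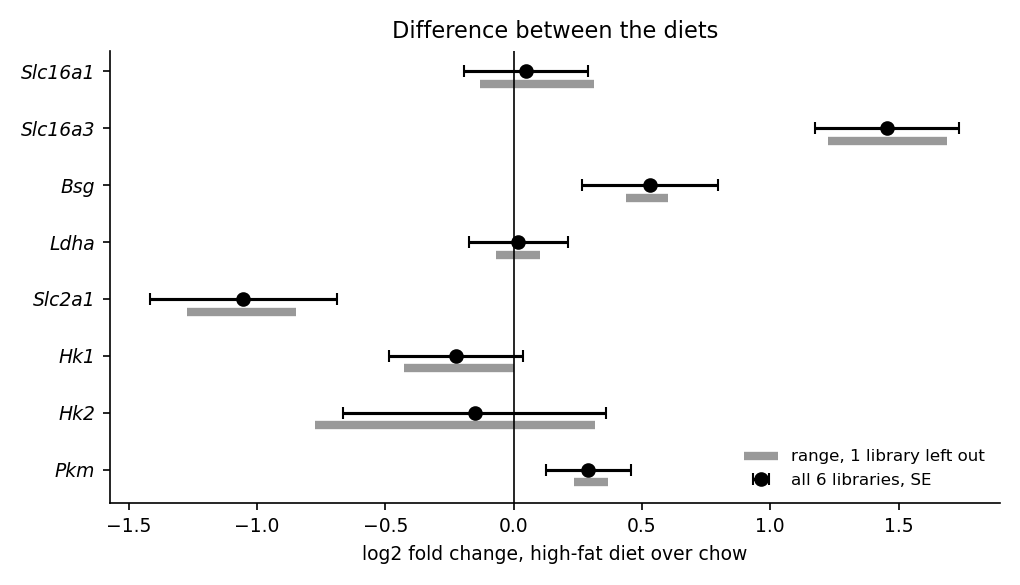
Log2 fold change of HFD over chow for the 8 genes above the filter on low counts, with its SE (points and thin bars) and the range when each library is left out in turn (grey bars). Slc16a3 (1.46) stays between 1.23 and 1.69 and Slc2a1 (-1.05) between -1.27 and -0.85, while the ranges of Slc16a1, Ldha and Hk2 include 0.

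Around these genes lie 111 others of glucose and lactate metabolism, in 9 lists given by role. Of these 79 were tested and 0 passed the adjusted p of 0.05 in edgeR's test, 41 with a positive and 38 with a negative log2 fold change and a median of 0.05. An unadjusted p under 0.05 was reached by 6 of the 79, 4 higher and 2 lower, beside 7.65% of all tested genes. The diets did not overlap for 13 of the 79, 6 higher and 7 lower, beside 15.3% of all tested genes. DESeq2 called 1 of the 79, beside 1.50% of all tested genes, and limma-voom 0, beside 0.750%. The DESeq2 call was Slc16a9, which passed the filter on low counts only through the chow libraries and so had to differ.

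Among 14 tested glycolytic enzymes outside the 10 genes, 6 had positive and 8 negative fold changes, with a median of -0.02 on the log2 scale. Pgk1, which makes the first ATP of the pathway's pay-off phase, was at 67.2, 41.6 and 43.8 CPM in HFD cells and 34.4, 23.4 and 28.0 CPM in chow cells, with no overlap (log2 fold change 0.83, SE 0.35, edgeR adjusted p = 0.570), and its transcript matched 4 pseudogenes in the search described above. Aldoa, the muscle aldolase, was at 214 ± 29.6 CPM in HFD cells and 167 ± 38.1 CPM in chow cells. Gapdh, whose transcript matched 82 other annotated genes in that search, was at 44.5 ± 8.42 CPM in HFD cells and 49.1 ± 19.7 CPM in chow cells. Of 3 tested controllers of flux, Pfkfb3, which makes the activator of phosphofructokinase, was at 21.1 ± 2.52 CPM in HFD cells and 31.8 ± 4.86 CPM in chow cells, and Pfkfb4 at 9.68 ± 7.60 CPM in HFD cells and 3.01 ± 1.39 CPM in chow cells.

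Of 14 tested genes of pyruvate entry into mitochondria, 4 had positive and 10 negative fold changes (median log2 fold change -0.40), and 3 had an unadjusted p under 0.05, beside 7.65% of all tested genes. Pdp1, a phosphatase that activates pyruvate dehydrogenase, was at 132, 136 and 94.3 CPM in HFD cells and 66.4, 67.8 and 88.8 CPM in chow cells, with no overlap (log2 fold change 0.70, SE 0.24, edgeR adjusted p = 0.407). Pdk3, a kinase that inactivates the same enzyme, was at 11.9 ± 2.52 CPM in HFD cells and 1.76 ± 0.962 CPM in chow cells (adjusted p = 0.442 in edgeR). Pdp2, a further phosphatase, named after its value was seen, was at 7.01 ± 3.16 CPM in HFD cells and 20.4 ± 11.1 CPM in chow cells. Pdk4, another of these kinases, at 281 ± 75.6 CPM in HFD cells and 255 ± 38.6 CPM in chow cells, and Mpc1, a subunit of the mitochondrial pyruvate carrier, at 10.0 ± 3.57 CPM in HFD cells and 17.8 ± 6.46 CPM in chow cells, had overlapping ranges.

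Of the other monocarboxylate carriers 9 were tested, 7 with positive and 2 with negative fold changes (median log2 fold change 0.69). Slc16a9, a carrier of carnitine and creatine in human cells, had 0 reads in every HFD library, against 4.14, 4.14 and 18.7 CPM in chow libraries 1, 2 and 3. Against a floor of 3 reads per library, 0.201 CPM in the shallowest, its chow mean was 44.8-fold and its lowest chow library 20.6-fold higher. The floor covers counting error and not variation between libraries, so neither value is a bound on the difference between the diets. Mpc2, for example, had 0, 28 and 417 reads in HFD libraries 1, 2 and 3. Since Slc16a9 passed the filter only through chow, its tests are not read as support. Slc16a10, a transporter of aromatic amino acids, was at 107 ± 23.6 CPM in HFD cells and 72.5 ± 11.6 CPM in chow cells (adjusted p = 0.631 in edgeR). Besides Slc2a3, the glucose transport list held Slc2a13, a myo-inositol transporter, at 5.56 ± 5.70 CPM in HFD cells and 13.2 ± 2.61 CPM in chow cells, and Txnip, which restrains glucose uptake, at 205 ± 103 CPM in HFD cells and 143 ± 67.9 CPM in chow cells. Of 9 tested in that list 4 had positive and 5 negative fold changes.

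The side branches held genes on both sides of 0. Of 12 tested glycogen genes 7 had positive fold changes, and the phosphoglucomutases Pgm2 and Pgm1 were at 54.0 ± 10.7 and 4.95 ± 1.14 CPM in HFD cells, against 30.9 ± 14.6 and 0.731 ± 0.171 CPM in chow cells. Of 7 tested pentose phosphate genes 5 were positive, with Rpia, the ribose-5-phosphate isomerase, at 11.5 ± 0.756 CPM in HFD cells and 5.73 ± 1.43 CPM in chow cells. G6pdx, which opens that branch, was at 16.6 ± 6.92 CPM in HFD cells and 11.9 ± 7.07 CPM in chow cells. Of 8 tested genes of the shuttles that carry cytosolic reducing equivalents into mitochondria 6 were positive, with Got2, the mitochondrial aspartate aminotransferase, at 50.0 ± 22.6 CPM in HFD cells and 29.6 ± 8.29 CPM in chow cells, and Slc25a11, the oxoglutarate carrier, at 15.1 ± 8.16 CPM in HFD cells and 4.88 ± 4.06 CPM in chow cells. Of 3 tested gluconeogenic genes G6pc3, a ubiquitous glucose-6-phosphatase, was at 8.32 ± 4.26 CPM in HFD cells and 15.2 ± 1.91 CPM in chow cells, and Pck2 at 4.43 ± 2.19 CPM in HFD cells and 9.39 ± 11.3 CPM in chow cells. No gene named in these branches passed the test over all genes.

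**Figure D5:**
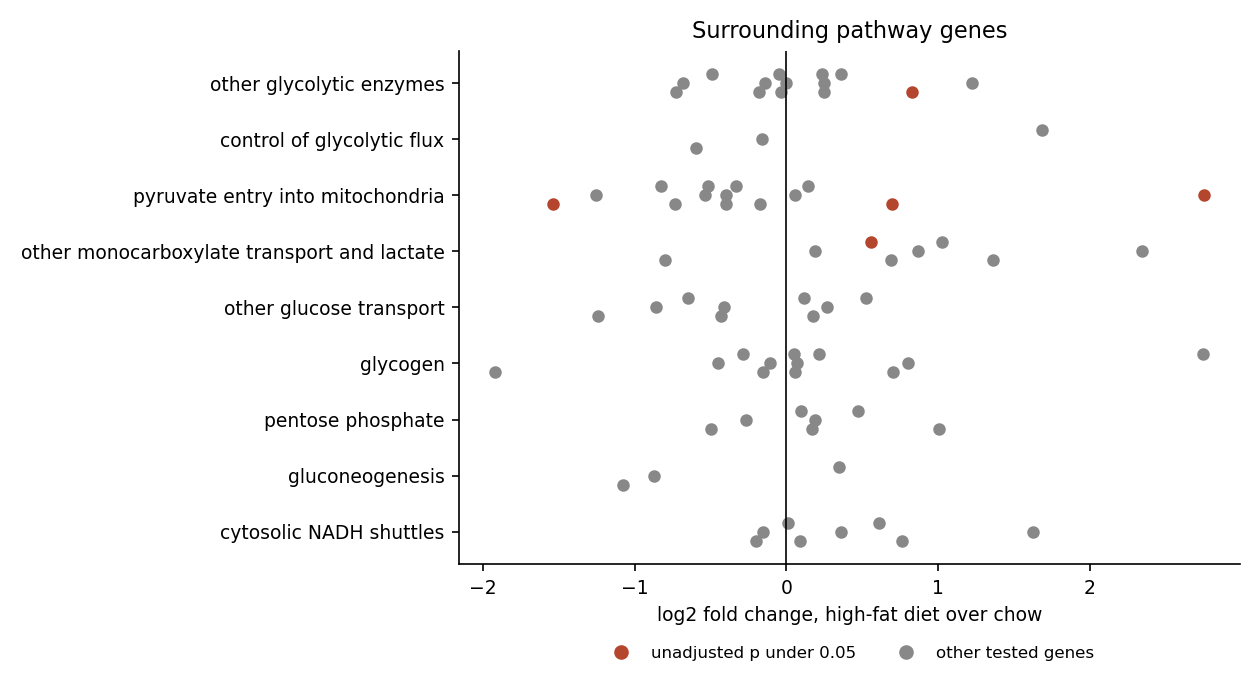
Log2 fold change of HFD over chow for the tested genes of the 9 surrounding lists, a point per gene, with those of an unadjusted p under 0.05 in red. Points lie on both sides of 0 in every list, and 0 of the 79 tested genes passed after adjustment over all genes; Slc16a9, at 0 reads in HFD cells, is not drawn.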

How the data were processed

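Per the labels' protocols, rRNA-depleted libraries were sequenced as single reads of 75 bases. Per the submitters' processing notes, reads were aligned with Bowtie2 and counted with featureCounts, with the mouse builds GRCm38 and mm10 named. Tool versions, the annotation release, and how strand and multiply mapped reads were handled are not given in the sources used here. Deposited values are whole-number read counts per Entrez gene ID, not normalised, in 1 file per library. Symbols came from RefSeq (GRCm38.p6) for 25275 IDs and GENCODE M21 metadata for 17, and 1887 had none. Libraries of a diet differed by more than sampling noise and were kept as 6 replicates.

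In R 4.3.3, edgeR 4.0.16 filtered genes (filterByExpr, minimum count 10), scaled libraries by TMM and compared the diets with the two-sided quasi-likelihood F test across all 13202 remaining genes, diet being the only factor. Calls had a Benjamini-Hochberg adjusted p under 0.05. SE is the absolute log2 fold change over the square root of F. CPM are TMM-scaled. RPKM divide them by the union of GENCODE M21 basic exons, known for 89.9% of tested genes. A floor of 3 reads stands for a count of 0 and covers counting error only. Alternatives used DESeq2 1.42.0, limma-voom (limma 3.58.1), other scalings, filters and an exon length correction (loess span 0.3). Near-identical copies were sought with blastn 2.17.0. The test was checked on simulated data.

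The genes and lists were chosen with earlier results of these data known. Named were all 10 genes, in each surrounding list the genes that passed or otherwise the 2 with the smallest p, and Gapdh, Pfkfb3, Pdk4, Mpc1, Txnip and Slc2a3. Outside this rule, Pdp2, the markers and the genes overlapping or copying these were named after their values were seen.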

Additional observations from a re-analysis of the deposited data

How the results depend on the processing

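Of the 8 genes tested, Slc16a3, Bsg, Pkm, Slc2a1 and Hk1 had the same sign of log2 fold change in all 16 alternatives, and Slc16a1, Ldha and Hk2 in 12, 13 and 14. For Hk1 (-0.23) this covers values next to 0, -0.00067 without chow library 2 and -0.06 without HFD library 1, and its direction is not settled. The fold changes of all 8 stayed within 1 SD of their libraries. The count of all genes called, 34 in edgeR, was 163 with no filter on low counts, 198 with DESeq2, 99 with limma-voom and 17 with the exon length trend removed, ran from 9 to 44 with 1 library left out, and was 1 without both HFD library 1 and chow library 3. The count among the 10 genes, 0 in edgeR, was 1 with upper quartile scaling, no filter, DESeq2 or limma-voom, in each case Slc16a3, whose adjusted p was 0.0464 with upper quartile scaling and 9.55e-05 with no filter. It was not called with any 1 library left out (adjusted p 0.0663 to 0.259) or with the length trend removed (0.239). Among the surrounding genes 1, Slc16a9, was called with no filter and with DESeq2, with 0 reads in every HFD library. The cause of these differences was not tested.

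With the replicate number as a block 45 genes were called and 0 of the 10, with an adjusted p of 0.0512 for Slc16a3. Same-numbered libraries did not deviate together (r across genes 0.0245, 0.0346 and -0.0261). These values cannot decide whether the libraries were paired in the experiment, since a pairing can leave little shared deviation. Differences in Ldhb and Slc2a4 were not detectable at this depth.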

Other observations

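The measured level of Gapdh, often used as a housekeeping gene, lay below that of some other enzymes of the pathway. In reads per kb of exon per 1000000 reads (RPKM), it averaged 31.3 over the 6 libraries, against 105 for Aldoa, 105 for Pkm and 21.8 for Pgk1. Its transcript matched 82 other annotated genes at 95% identity over at least 75 bases, of which 77 were pseudogenes, whereas Pgk1 matched 4 and Aldoa 0. The part of these copies in that level was not tested.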
